A study of Mus musculus and Rattus norvegicus with 30 samples.

Results

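The glial cell line-derived neurotrophic factor (GDNF) family was followed in RNA sequencing of the dorsal root ganglion (DRG), where the cell bodies of the sensory neurons of a spinal nerve lie. The family was taken as 8 genes, chosen by symbol with earlier results of these data known. They were the ligand genes Gdnf, Nrtn and Artn, the co-receptor genes Gfra1, Gfra2, Gfra3 and Gfra4, and the receptor gene Ret. All 8 had a row among the 54315 features of the mouse count table, and all 8 passed the filter on low counts, as did 24685 features in all. In the rat count table of 39281 features, 7 of the 8 had a row under their symbol, 5 had at least 1 count, and 4 passed the filter, beside 13690 features in all.

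Adult mice of the inbred strains BALB/c and B10.D2, of both sexes, had spared nerve injury (SNI) or sham surgery, and the lumbar L3 and L4 DRG were taken on day 28. In SNI the tibial branch of the sciatic nerve is spared while its common peroneal and sural branches are cut, so these ganglia hold injured and uninjured neurons side by side. Each mouse library was made from 1 animal, with 6 sham and 4 SNI libraries of BALB/c and 5 sham and 5 SNI libraries of B10.D2. Male Wistar rats had the L5 spinal nerve ligated and cut (spinal nerve transection, SNT) or sham surgery, and each of the 4 sham and 4 SNT libraries pooled the L5 DRG of 3 animals on day 21. Sham surgery exposed the nerve without cutting it, and no group carried a genetic alteration or a drug.

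GDNF, neurturin and artemin are secreted growth factors that bind, in that order of preference, the surface proteins GFRα1, GFRα2 and GFRα3, which have no intracellular part of their own. The bound pair recruits RET, a receptor tyrosine kinase, which then signals through adaptor proteins to the ERK and AKT kinases. GFRα4 is the co-receptor of persephin. In the DRG, RET marks nonpeptidergic nociceptors and some large neurons, GFRα3 marks mostly peptidergic nociceptors, and Schwann and satellite cells can make ligand.

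The mouse libraries held 29989963 to 41881331 counts and the rat libraries 11954612 to 17887909. Levels are given as CPM, the counts of a gene per 1000000 counts of its library, scaled by the trimmed-mean factor of each library. A list of 8 general sensory neuron markers summed to between 6204 and 7508 CPM in the mouse libraries, and 4 markers of central nervous tissue to between 1.23 and 9.85 CPM. Skeletal muscle markers were high in BALB/c sham library 50 (1146 CPM over 3 genes) and BALB/c SNI library 49 (448 CPM), against 5.72 to 85.55 CPM in the other mouse libraries. A list of 10 markers of injured sensory neurons, among them the transcription factor Atf3, summed to 212 to 281 CPM in all sham mice, to 765 to 902 CPM in BALB/c SNI and to 341 to 671 CPM in B10.D2 SNI, where library 76 was lowest. In rat, 2 of these 10 markers, Gap43 and Atf3, were listed without counts, so the rat sums rest on the other markers. By these sums, sham library 4 (756 CPM) stood above the other sham libraries (303 to 339 CPM). SNT library 1 (1020 CPM) was the lowest of its group. Rat log2 fold changes are therefore also given without these libraries. In bulk tissue, fewer cells of a type and less RNA per cell cannot be told apart.

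Within uninjured mouse DRG the receptors were abundant and the ligands were close to the detection floor. Levels of different genes were compared as CPM per kb of annotated exon. In BALB/c sham, Ret stood at 73.2 ± 9.62 CPM per kb (SD, n = 6), ahead of Gfra1 at 25.5 ± 1.09, Gfra3 at 19.5 ± 4.24 and Gfra2 at 18.2 ± 2.64. Gfra4 followed at 3.28 ± 0.26 and Nrtn at 0.543 ± 0.102. Artn (0.106 ± 0.031) and Gdnf (0.0917 ± 0.0271) came last. The ranges of Gfra1 and Gfra3 overlapped, as did those of Gfra3 and Gfra2 and those of Artn and Gdnf. These neighbours could not be ordered beyond their spread. Every Gfra1 library (lowest 23.5 CPM per kb) lay above every Gfra2 library (highest 22.3 CPM per kb). The B10.D2 sham libraries gave Ret at 82.1 ± 6.79 CPM per kb (SD, n = 5), Gfra1 at 32.0 ± 1.89, Gfra2 at 26.3 ± 2.93, Gfra3 at 22.8 ± 4.35, Gfra4 at 4.02 ± 0.314 and Nrtn at 0.383 ± 0.0491. Gdnf and Artn again came last, with overlapping ranges. In B10.D2 sham the ranges of Gfra1 (lowest 29.0 CPM per kb) and Gfra2 (highest 30.4 CPM per kb) also overlapped, as did those of Gfra2 and Gfra3. The order of these neighbours there is likewise not settled beyond their spread. After SNI, Gdnf stood by its mean above Nrtn, at 0.565 ± 0.0608 against 0.462 ± 0.0778 CPM per kb in BALB/c (SD, n = 4) and 0.442 ± 0.106 against 0.395 ± 0.186 in B10.D2 (SD, n = 5), with overlapping ranges. Gfra3 then lay above Gfra2 without overlap in each strain. The sham order did not depend on whether exon union or longest transcript was used as the length.

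**Figure D1:**
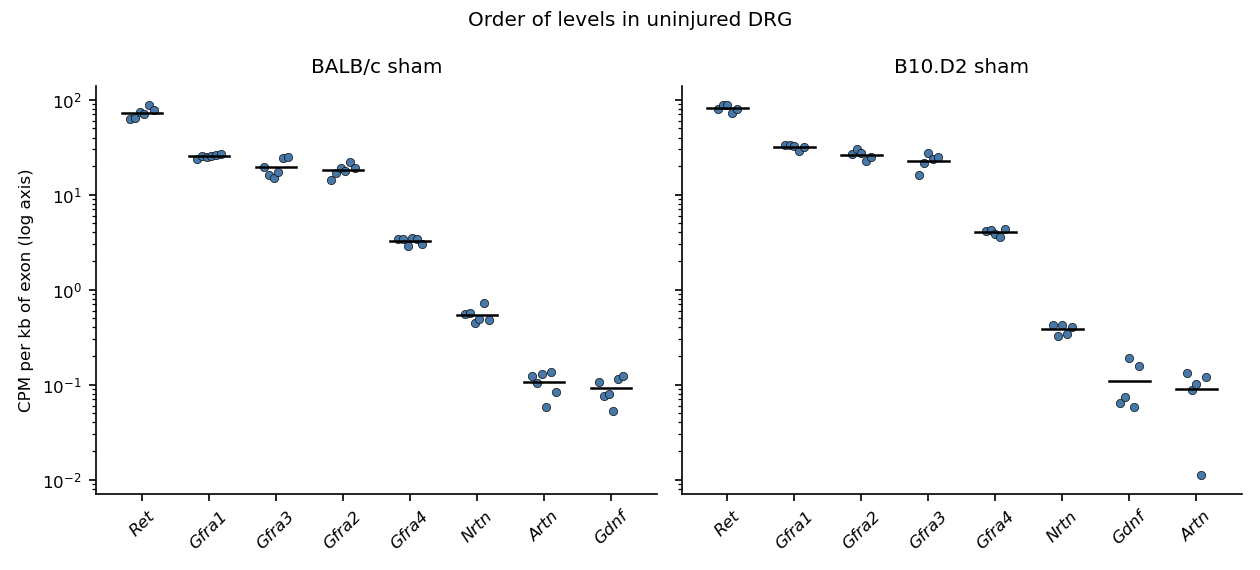
Levels of the 8 genes in sham DRG of each mouse strain, as CPM per kb of annotated exon on a log axis, where points are libraries (6 BALB/c, 5 B10.D2) and lines are means. Ret lies above all co-receptor genes in both strains, and the 3 ligand genes lie under 1 CPM per kb.

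SNI was compared with sham within each strain to ask which genes of the family change after nerve injury. Gdnf, Gfra1 and Gfra3 rose in both strains, and Gfra4 fell in BALB/c. In BALB/c, 4 of the 8 were called by the quasi-likelihood test of edgeR at an adjusted p-value under 0.05 (3 higher, 1 lower), where 9.69% of all features tested were called, 4.82% higher and 4.87% lower. In B10.D2, 3 of the 8 were called, all higher, where 4.58% of all features were called and 2.1% were called higher. The median log2 fold change of the 8 genes was 0.09 for BALB/c and 0.24 for B10.D2. Over all features tested it was 0.00 and 0.01.

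Gdnf (ENSMUSG00000022144, chr15:7810846-7837575, plus strand, mm10), the founding ligand, showed the largest change of the family. It stood at 0.195, 0.338 and 0.457 CPM (lowest, median and highest) in the 6 BALB/c sham libraries. The 4 BALB/c SNI libraries held 1.78, 2.23, 2.02 and 2.27 CPM. Every SNI library thus lay above every sham library, at 55 to 89 counts against 7 to 16. The log2 fold change was 2.62 (SE 0.27, edgeR adjusted p = 1.49e-06), which is 6.15-fold higher with a 95% interval of 4.17 to 9.08. In B10.D2 the sham libraries held 0.234, 0.271, 0.706, 0.213 and 0.579 CPM. The B10.D2 SNI libraries held 2.18, 1.56, 1.75, 1.1 and 1.54 CPM, again without overlap between the groups. That change was 1.95 on the log2 scale (SE 0.274, edgeR adjusted p = 0.000167), or 3.87-fold with an interval of 2.61 to 5.75. The call held in each fit that left out 1 library, with log2 fold changes between 2.49 and 2.75 in BALB/c and between 1.74 and 2.26 in B10.D2.

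Markers of cells that surround the neurons were summed beside this rise. Of 6 macrophage markers, 3 were called higher in BALB/c and 0 in B10.D2, with sums of 44.0 to 113 CPM in BALB/c sham, 86.3 to 143 CPM in BALB/c SNI, 89.1 to 103 CPM in B10.D2 sham and 106 to 174 CPM in B10.D2 SNI. Of 5 satellite glia markers, 1 was called higher in each strain. Of 3 endothelium markers, 1 was called higher in BALB/c and 0 in B10.D2. Of 6 markers of myelinating Schwann cells and 3 of fibroblasts, 0 were called in either strain. The part of these cells in the rise of Gdnf was not tested.

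RefSeq promoter windows (GRCm38.p6) were searched for Gfra4, Artn, Gdnf, Nrtn and Gfra1, in 7 windows. Each ran from 250 bases before to 50 bases after a start site. Gfra3 was not searched, and no window was available for Ret and Gfra2. The first of the Gdnf windows held a TATA box, searched as TATAAA on both strands. Its first letter lay 31 bases before the start site, and 13.6% of all 32851 promoter windows held these letters. It is shown because Gdnf changed most, with the motif in capitals.
Gdnf, chr15:7810007-7810032, plus strand: gtgagagctcTATAAAtgcatcccca

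The AP-1 motif, bound by the JUN, FOS and ATF proteins of injured neurons, was searched loosely as TGANTCA, with any middle letter. A match was found in 1 of the 7 windows, the second of Gfra4, with T as the middle letter, beside 7.81% of all windows. The cyclic AMP response element TGACGTCA (1.79% of all windows) and the E-box CACGTG (7.15%) were in none of the 7. The GC box GGGCGG was in the windows of Artn and Nrtn and in 35.7% of all windows. None of these letters was in the Gfra1 window.
Gfra4, chr2:131042700-131042726, minus strand, AP-1 letters in capitals: agtcccctacTGATTCAtggtggctct
Nrtn, chr17:56757619-56757644, minus strand, GC box letters in capitals: ggcaggacgaGGGCGGttcccgagcc

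The other ligands were measured on few counts and did not pass the test in either strain. Nrtn (ENSMUSG00000039481, chr17:56751325-56757530, minus strand), which encodes neurturin, stood at 0.459, 0.534 and 0.746 CPM (lowest, median and highest) in BALB/c sham and at 0.454, 0.376, 0.4925 and 0.567 CPM in BALB/c SNI. The B10.D2 libraries held 0.439, 0.332, 0.435, 0.346 and 0.41 CPM in sham and 0.67, 0.408, 0.291, 0.482 and 0.168 CPM in SNI. The groups overlapped in both strains, at 6 to 25 counts a library. Its log2 fold change was -0.23 in BALB/c (95% interval -0.78 to 0.31) and 0.02 in B10.D2 (-0.55 to 0.59). Artn (ENSMUSG00000028539, chr4:117926162-117929763, minus strand), which encodes artemin, the ligand of GFRα3, had 1 to 20 counts a library. It stood at 0.139, 0.274 and 0.328 CPM (lowest, median and highest) in BALB/c sham and at 0.292, 0.276, 0.259 and 0.34 CPM in BALB/c SNI. Its log2 fold change was 0.19 in BALB/c (-0.60 to 0.98). In B10.D2 the sham libraries held 0.322, 0.211, 0.245, 0.0266 and 0.29 CPM and the SNI libraries 0.447, 0.153, 0.218, 0.535 and 0.336 CPM, for a log2 fold change of 0.70 (-0.08 to 1.48, edgeR adjusted p = 0.368). The estimated change of Gdnf in the same strain lay above each of these intervals. In B10.D2 the interval of Gdnf itself (1.38 to 2.52) overlapped that of Artn. The difference between genes was not tested.

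Gfra1 (ENSMUSG00000025089, chr19:58235604-58455909, minus strand) encodes the co-receptor that binds GDNF. The 6 BALB/c sham libraries held 129, 141 and 145 CPM (lowest, median and highest), and the 4 BALB/c SNI libraries 183, 196, 176 and 188 CPM. There was no overlap, and the log2 fold change was 0.41 (SE 0.0771, edgeR adjusted p = 0.00125), or 1.33-fold. In B10.D2 the sham libraries held 184, 184, 177, 159 and 173 CPM and the SNI libraries 268, 177, 245, 249 and 253 CPM. There 4 of the 5 SNI libraries lay above all sham libraries, while SNI library 76 lay within the sham range. The log2 fold change was 0.45 (SE 0.0768, edgeR adjusted p = 0.00099), or 1.37-fold, and 0.53 without library 76, the library with the lowest sum of injured neuron markers in its group. Its part in the spread was not tested.

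Gfra3 (ENSMUSG00000024366, chr18:34689898-34720387, minus strand) encodes the co-receptor for artemin. It stood at 29.9, 36.5 and 49.5 CPM (lowest, median and highest) in BALB/c sham and at 52.0, 59.1, 59.4 and 64.2 CPM in BALB/c SNI. All SNI values lay above all sham values, and the log2 fold change was 0.59 (SE 0.133, edgeR adjusted p = 0.00592), or 1.51-fold. The B10.D2 sham libraries held 31.9, 43.5, 54.8, 47.4 and 50.2 CPM. The B10.D2 SNI libraries held 69.4, 69.2, 70.1, 66.98 and 62.9 CPM, with no overlap and a spread of 2.95 CPM (SD, n = 5) against 8.69 CPM (SD, n = 5) in sham. The log2 fold change was 0.56 (SE 0.132, edgeR adjusted p = 0.016), or 1.47-fold. Of 6 markers of peptidergic neurons, 1 was called higher and 1 lower in BALB/c, and 0 were called higher and 1 lower in B10.D2. Their sum was 1458 to 1793 CPM in BALB/c sham, 1399 to 1691 CPM in BALB/c SNI, 1607 to 2027 CPM in B10.D2 sham and 1428 to 1760 CPM in B10.D2 SNI.

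Gfra2 (ENSMUSG00000022103, chr14:70890120-70979838, plus strand), the neurturin co-receptor, did not pass the test after injury in either strain. It stood at 50.8, 64.7 and 78.8 CPM (lowest, median and highest) in BALB/c sham and at 53.7, 62.7, 60.8 and 68.7 CPM in BALB/c SNI, all within the sham range. In B10.D2 the sham libraries held 93.8, 108, 96.9, 79.8 and 87.6 CPM and the SNI libraries 89.96, 85.2, 84.8, 88.7 and 98.9 CPM. On the log2 scale the change was -0.06 in both strains, with 95% intervals of -0.27 to 0.14 in BALB/c and -0.26 to 0.14 in B10.D2.

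Gfra4 (ENSMUSG00000027316, chr2:131039632-131043088, minus strand), the co-receptor for persephin, fell in BALB/c. The sham libraries held 6.18, 7.36 and 7.59 CPM (lowest, median and highest) and the SNI libraries 5.35, 5.02, 5.88 and 6.01 CPM, without overlap. It fell by 0.35 on the log2 scale (SE 0.0905, edgeR adjusted p = 0.0164). This call rested on few SNI libraries: the adjusted p was 0.0563 without SNI library 49, 0.0678 without SNI library 64, and 0.0609 without the libraries high in muscle markers, sham 50 and SNI 49. In B10.D2 the sham libraries held 8.89, 9.26, 8.26, 7.77 and 9.37 CPM and the SNI libraries 7.37, 8.55, 7.49, 8.38 and 6.58 CPM. These overlapped, with a log2 fold change of -0.17 (95% interval -0.35 to 0.01, edgeR adjusted p = 0.339). The microRNA gene Mir6973b (chr2:131040319-131040398, minus strand) lies within Gfra4 on the same strand, so reads there could belong to either.

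Ret (ENSMUSG00000030110, chr6:118151745-118197718, minus strand) did not pass the test in either strain. The BALB/c sham libraries held 422, 493 and 602 CPM (lowest, median and highest) and the SNI libraries 466, 502, 457 and 556 CPM. In B10.D2 the sham libraries held 545, 598, 601, 490 and 542 CPM and the SNI libraries 539, 509, 562, 572 and 588 CPM. SNI and sham values were interleaved in both strains, at 14161 to 23171 counts a library. The log2 fold change was 0.00 in both strains, with 95% intervals of -0.17 to 0.18 in BALB/c and -0.18 to 0.17 in B10.D2, so that a change beyond 1.13-fold in BALB/c lay outside the interval. Of 11 markers of nonpeptidergic and C-low-threshold neurons, which are among the populations that use RET, none was called in BALB/c and 1 was called higher in B10.D2. Of 6 markers of large-diameter neurons, 3 were called lower in each strain.

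**Figure D2:**
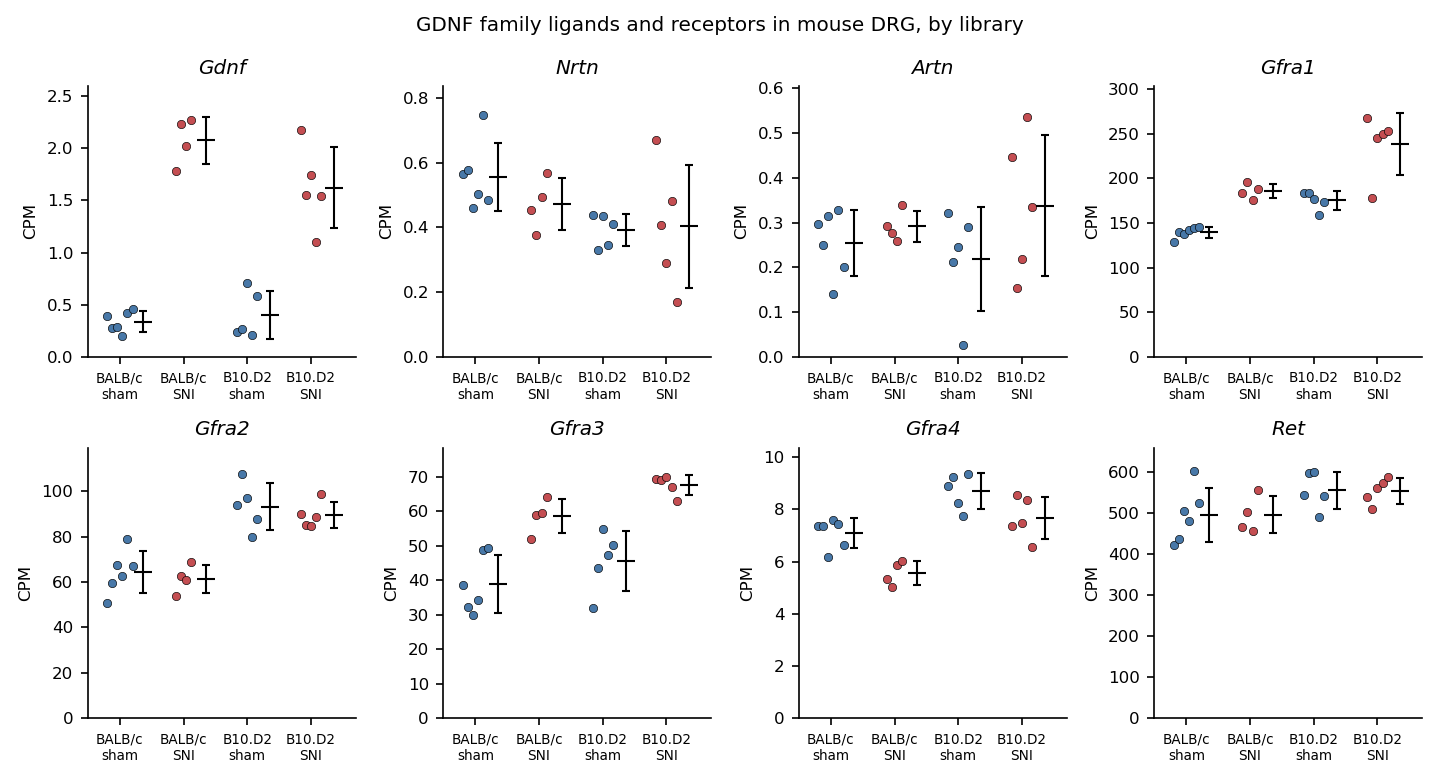
CPM of the 8 genes in mouse DRG, 1 point per library (for BALB/c 6 sham and 4 SNI, for B10.D2 5 of each), with the mean and SD beside each group and every axis starting at 0. Gdnf and Gfra3 show no overlap of SNI with sham in either strain, Gfra1 shows 1 B10.D2 SNI library (177 CPM) within the sham range, and Ret shows SNI points among the sham points.

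Whether the injury change differed between strains was asked by the interaction of strain and surgery. In edgeR, none of the 8 genes was called, none had an unadjusted p under 0.05, and none was called in DESeq2, where edgeR called 0.0243% of all features. The rise of Gdnf was smaller in B10.D2 by 0.67 on the log2 scale, with a 95% interval for the difference of -1.49 to 0.16. For Gfra4 the difference was 0.18 (-0.08 to 0.44), so that no difference between strains was detected for the gene called in BALB/c alone. The differences for Ret (0.00, -0.25 to 0.24) and Gfra1 (0.04, -0.19 to 0.27) lay around 0.

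The strains themselves differed at 3 co-receptor genes. In sham DRG, Gfra2, Gfra1 and Gfra4 were called, all higher in B10.D2, where 21.6% of all features were called and 11.5% were called higher. The Gfra2 libraries of B10.D2 (79.8 to 108 CPM) lay above those of BALB/c (50.8 to 78.8 CPM), and the log2 fold change was 0.54 (SE 0.0907, edgeR adjusted p = 0.000129), or 1.45-fold. For Gfra1 the change was 0.32 (SE 0.073, edgeR adjusted p = 0.0023), with sham ranges of 159 to 184 CPM and 129 to 145 CPM. For Gfra4 it was 0.29 (SE 0.0828, edgeR adjusted p = 0.0143), with ranges of 7.77 to 9.37 CPM and 6.18 to 7.59 CPM. None of these 3 ranges overlapped. After SNI the same comparison called Gfra2 (0.54), Gfra4 (0.47) and Gfra1 (0.36), all higher in B10.D2, where 20.9% of all features were called and 10.9% were called higher. Ret was not called, at a log2 fold change of 0.17 in sham (edgeR adjusted p = 0.158) and 0.16 after SNI (edgeR adjusted p = 0.221), but it was called in sham without BALB/c sham library 57 (edgeR adjusted p = 0.0235), which held the highest Ret value of its group. Of the 11 nonpeptidergic and C-low-threshold markers, 4 were called higher and 2 lower in B10.D2 sham. Their sum was 1422 to 1876 CPM in BALB/c sham and 1550 to 1737 CPM in B10.D2 sham, and their part in the strain differences was not tested. Both strains were aligned to the same reference genome, and the part of alignment in these differences was not tested.

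Male and female mice did not differ detectably. None of the 8 genes was called in edgeR or in DESeq2, none had an unadjusted p under 0.05, and edgeR called 0.243% of all features. The log2 differences of male over female lay between -0.16 for Gdnf and 0.43 for Artn.

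**Figure D3:**
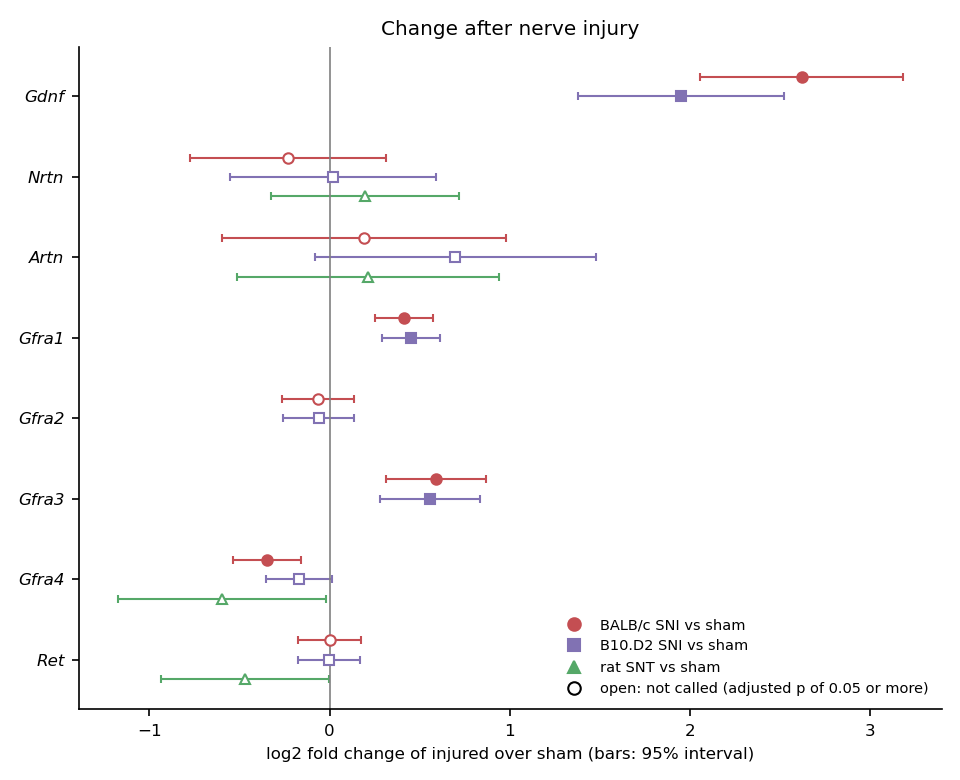
Log2 fold change of injured over sham for each gene tested (injured against sham, BALB/c 4 and 6 libraries, B10.D2 5 and 5, rat 4 and 4), with 95% intervals, filled where the edgeR adjusted p was under 0.05. Gdnf lies at 2.62 and 1.95 in the mouse strains, Gfra1 and Gfra3 lie between 0.41 and 0.59, and Ret lies at 0 in mouse and at -0.47 in rat.

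The rat comparison asked which of these genes change when the L5 spinal nerve is cut. None of the 4 genes tested was called in edgeR or in DESeq2, 2 (Ret and Gfra4) had an unadjusted p under 0.05 in edgeR, and 27.4% of all features were called. Ret stood at 564, 928, 663 and 611 CPM in sham libraries 1 to 4 and at 612, 477, 346 and 563 CPM in SNT libraries 1 to 4. The groups overlapped through SNT library 1 and sham libraries 1 and 4. The log2 fold change was -0.47 (95% interval -0.93 to -0.01, edgeR adjusted p = 0.114). It was -0.62 without sham library 4 and SNT library 1 (edgeR adjusted p = 0.0464, called) and -0.27 without sham library 2 (edgeR adjusted p = 0.318). The former 2 libraries were picked by their injured neuron marker sums in these data, as those nearest the other group. The call without them is therefore no separate support for a lower Ret level. Of the 9 nonpeptidergic and C-low-threshold markers tested in rat, 6 were called lower, and the summed level of that list was 879 to 1419 CPM in sham and 258 to 736 CPM in SNT. Of 4 general neuron markers tested, 3 were called lower, and 4 of that list of 8 were listed at 0. Their part in the lower Ret values was not tested.

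Gfra4 stood at 1.57, 1.28, 2.14 and 1.56 CPM in rat sham libraries 1 to 4 and at 0.759, 1.03, 1.33 and 1.18 CPM in SNT libraries 1 to 4. The groups overlapped through SNT library 3, and the log2 fold change was -0.60 (95% interval -1.17 to -0.02, edgeR adjusted p = 0.109) on 12 to 30 counts a library. Artn stood at 2.07, 0.793, 1.35 and 1.95 CPM in sham and at 1.2, 2.23, 1.61 and 2.03 CPM in SNT. Nrtn stood at 1.82, 1.95, 1.71 and 1.56 CPM in sham and at 2.15, 1.63, 2.72 and 1.57 CPM in SNT. Sham and SNT values were interleaved for both ligands. The log2 fold changes were 0.21 for Artn (-0.51 to 0.94) and 0.20 for Nrtn (-0.32 to 0.72). Without sham library 4 and SNT library 1 they were -0.47 for Gfra4, 0.53 for Artn and 0.13 for Nrtn, none of them called.

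Gdnf had too few counts in rat to pass the filter. The sham libraries 1 to 4 held 2, 0, 0 and 9 counts and the SNT libraries 2, 23, 8 and 8, where sham library 4 and SNT library 1 are the libraries that stood between the groups on the injured neuron markers. A library with 0 counts allows up to 3 counts, which is 0.168 to 0.251 CPM in these libraries for counting error alone. In the fit with no filter on low counts, the log2 fold change of Gdnf was 1.64 (edgeR adjusted p = 0.223). Gfra2 and Gfra3 were listed at 0 in all 8 libraries. So was the glial gene Glul, which satellite cells of every ganglion use, and a listed 0 in that table is therefore not taken as a level. Gfra1 was not analysed in rat.

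**Figure D4:**
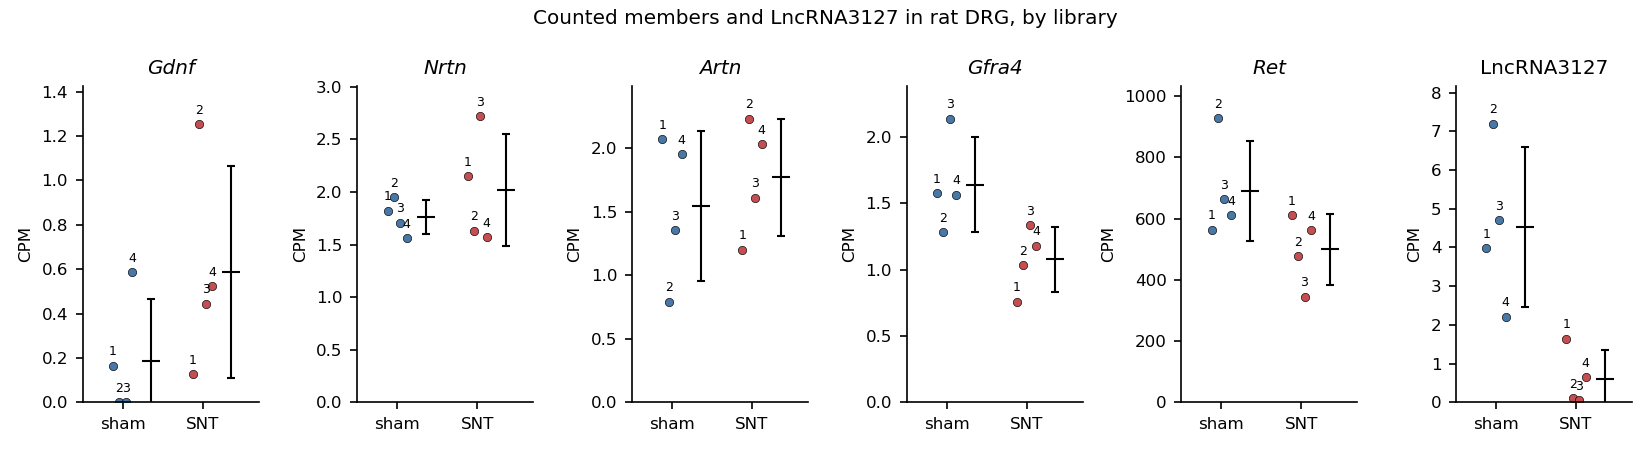
CPM of the 5 members with counts in rat and of LncRNA3127, 1 point per library labelled with its number (4 sham, 4 SNT, each a pool of 3 animals), with the mean and SD beside each group, error bars ending at 0 where they would pass below it. Ret overlaps between groups, Gdnf lies under 0.6 CPM in 7 of 8 libraries, and LncRNA3127 shows no overlap.

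The study assembled unannotated long non-coding RNAs (LncRNAs), of which 3 in mouse overlap a gene of this family and 1 in rat is followed beside Ret. In rat, LncRNA3127 (chr4:150249008-150249315, minus strand, rn6, 1 exon of 308 bases) is the one that the study pairs with Ret as its nearest gene. It stood at 3.98, 7.2, 4.7 and 2.21 CPM in sham libraries 1 to 4 and at 1.64, 0.109, 0.0556 and 0.655 CPM in SNT libraries 1 to 4, without overlap. It fell by 2.91 on the log2 scale (SE 0.701, edgeR adjusted p = 0.0174), was called in every fit that left out 1 library, and fell by 4.32 without sham library 4 and SNT library 1. Sham libraries 1 to 4 held 48, 118, 66 and 34 counts, and SNT libraries 1 to 4 held 26, 2, 1 and 10. SNT libraries 2 and 3 lay under the floor of 3 counts, so the size of the fall is uncertain.

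In mouse, LncRNA5075 (chr6:118167896-118169229, plus strand, mm10) lies on the opposite strand within Ret, and each of its 3 exons overlapped a Ret exon. It had 1 to 12 counts a library, under the filter, beside at least 14161 counts of Ret. Of LncRNA6855 (chr14:70889839-70893569, minus strand), opposite to Gfra2, 1 of 3 exons overlapped an exon of that gene, and it had 0 to 9 counts a library. LncRNA3519 (chr19:58313185-58335972, minus strand) lies inside Gfra1 on the same strand, in 2 exons that overlapped none of its exons. It was at 40.0 to 76.5 CPM and did not pass the test, with log2 fold changes of 0.27 in BALB/c (95% interval -0.01 to 0.54) and 0.18 in B10.D2 (-0.10 to 0.46), beside 0.41 and 0.45 for Gfra1. Gm16277, an annotated antisense gene, overlaps Gfra1 on the opposite strand. Whether the counting used the strand is not given in the sources used here, so reads of overlapping genes may be shared.

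The borders of these assembled exons are shown because most introns removed by splicing begin with GT and end with AG. The gap of LncRNA3519 did so on its own strand, whereas neither gap of LncRNA5075 did. Both gaps of LncRNA6855 also lacked these letters on their own strand. Neither gap of LncRNA5075 had the same coordinates as an annotated Ret intron, and only identical coordinates were compared. Read on the strand of Ret, the first gap of LncRNA5075 begins with GT and has AG just inside its other end. Whether it follows a Ret intron was not tested. Capitals mark the first bases of a gap in its upstream border and the last bases in its downstream border, read from mm10 on the strand of the LncRNA.
LncRNA3519, upstream border, chr19:58324170-58324194: gtatgctcatGTgtgtgctcacctg
LncRNA3519, downstream border, chr19:58323851-58323875: catgtgtgtgctcAGctgtgtgtgc
LncRNA5075, first gap, upstream border, chr6:118168008-118168032: cgatgtacaaGCtgtagaaagaaag
LncRNA5075, first gap, downstream border, chr6:118168107-118168131: gtctgtggctctcACcttcatttct
LncRNA5075, second gap, upstream border, chr6:118168256-118168280: caggcccaatCTtgcggctgtcacg
LncRNA5075, second gap, downstream border, chr6:118169113-118169137: tagccttaccatcCTggctgcaggc

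The wider RET pathway was followed with 37 partner genes: other ligands and receptors that use RET or GFRα proteins, adaptors, kinases, feedback inhibitors and target transcription factors. In BALB/c, 34 were tested, 6 were called higher and 3 lower, where 9.69% of all features were called. In B10.D2, 3 of 34 were called higher and 1 lower, where 4.58% of all features were called. In rat, 19 were tested, 6 were called higher and 1 lower, where 27.4% of all features were called, and 16 of the list were at 0 in all libraries. The median log2 fold change of the list was 0.00 in BALB/c, -0.01 in B10.D2 and 0.21 in rat, and the median over all features tested lay between 0.00 and 0.01. The 7 partners named here were called in at least 2 of the 3 injury comparisons, or were called with a log2 fold change of at least 1 in either direction.

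Etv1, an ETS transcription factor of sensory neurons, was called lower in all 3 comparisons. It fell from 60.2 ± 3.87 to 41.0 ± 3.64 CPM in BALB/c (SD, n = 6 and 4), from 53.2 ± 8.0 to 36.5 ± 0.531 CPM in B10.D2 (SD, n = 5 and 5) and from 378 ± 81.2 to 184 ± 42.1 CPM in rat (SD, n = 4 and 4). The edgeR adjusted p was 0.000156, 0.000376 and 0.0115. The adaptor gene Grb10, whose product binds RET, rose by 0.49 on the log2 scale in BALB/c (edgeR adjusted p = 2.83e-06) and by 0.35 in B10.D2 (edgeR adjusted p = 0.00041). The docking protein gene Gab1 rose by 0.19 and 0.20 (edgeR adjusted p = 0.00753 and 0.00734). Both were listed at 0 in rat.

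The remaining named partners were called in BALB/c, and 3 of them in rat also. Ncam1, which encodes an adhesion protein that binds GDNF together with GFRα1, rose by 0.27 in BALB/c and 0.33 in rat on the log2 scale. Lrig1, an inhibitor of RET signalling, rose by 0.30 and 0.58. Dusp6, a phosphatase that turns off ERK, rose by 0.47 and 0.95. Without rat sham library 4 and SNT library 1, the rat log2 fold changes were -1.32 for Etv1, 0.40 for Ncam1, 0.75 for Lrig1 and 1.23 for Dusp6, all called. In B10.D2 the last 3 were not called, with log2 fold changes of 0.17 for Ncam1, 0.17 for Lrig1 and -0.28 for Dusp6. The edgeR adjusted p of Dusp6 and Lrig1 in BALB/c (0.0454 and 0.038) and of Ncam1 in rat (0.0496) lay near the threshold, and these calls were lost in 7, 8 and 7 of the 10, 10 and 8 fits that left out 1 library. Gfral, which encodes the receptor of GDF15 and signals through RET, had 3 to 9 counts in BALB/c sham and 14 to 20 in BALB/c SNI, and rose by 1.63 on the log2 scale (SE 0.413, edgeR adjusted p = 0.0146), a call lost without SNI library 64 (edgeR adjusted p = 0.0539). It had 0 to 3 counts in all B10.D2 libraries. In rat it had 2 to 6 counts in sham and 0 to 2 in SNT, under the filter. In the fit with no filter on low counts it was called lower in rat, the direction opposite to BALB/c, at a log2 fold change of -2.97 (edgeR adjusted p = 0.0324) that rests on these few counts.

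**Figure D5:**
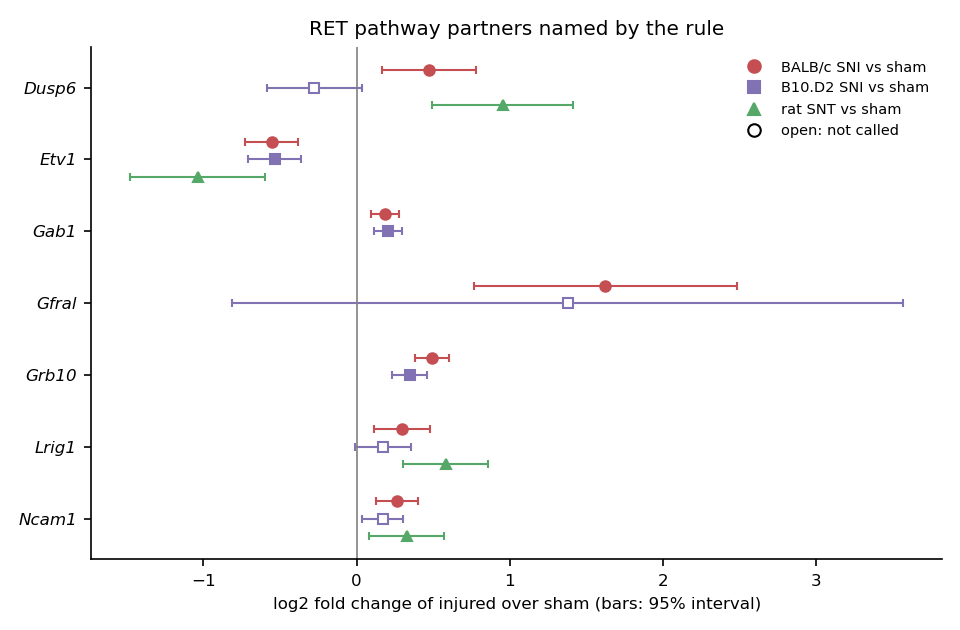
Injury change with 95% intervals, on the log2 scale, for the 7 named RET pathway partners in BALB/c, B10.D2 and rat, filled where the edgeR adjusted p was under 0.05. Etv1 lies left of 0 in all 3 comparisons (-0.55, -0.53 and -1.04), and Gab1 and Grb10 lie right of 0 in both mouse strains.

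For the 5 members of at least 5 CPM in mouse, the genes most like each across the 20 libraries were found among 11891 genes of at least 5 CPM, by the mean absolute difference of standardised log2(CPM + 1) values. They are a description over libraries that share strain and surgery. Those nearest to Ret were Tbc1d9 (0.298), Trak1 (0.333) and Apba1 (0.353). Gfra1 lay nearest to Phactr2 (0.278), Tmem159 (0.293) and Slc6a19 (0.306). For Gfra3 they were Cacna2d1 (0.25), which encodes the calcium channel subunit bound by gabapentin, Pcdh15 (0.288) and the ephrin receptor gene Epha5 (0.319). Gfra2 lay nearest to Tlnrd1 (0.219), Trim62 (0.225) and Pik3cd (0.233), and Gfra4 to Mrps12 (0.323), Selenom (0.327) and Magi3 (0.345).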

How the data were processed

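Per the study's methods, strand-specific paired-end libraries, ribosome-depleted in mouse and poly-A selected in rat, were aligned by the authors with STAR to mm10 or rn6 and read pairs were counted with HTSeq over annotated genes and LncRNAs assembled by the authors. The deposited tables hold these raw counts. Both mouse strains were aligned to 1 reference. Columns of fold changes and p-values made by the authors with DESeq2 were not used, except that their symbol column named the genes. Libraries were grouped by the labels. B10.D2 sham 59 and BALB/c SNI 66 were not analysed here. Mouse libraries are named by the number in their title, and rat libraries by their order.

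Counts were tested with edgeR 4.0.16 (R 4.3.3; TMM, filterByExpr with the design, glmQLFTest, two-sided), with sex, strain, surgery and their interaction in mouse and surgery in rat. P-values were adjusted by Benjamini-Hochberg over all features tested. SE is the absolute log2 fold change over the square root of F, and 95% intervals use the degrees of freedom of the fit. CPM are counts over the library total times the TMM factor. Floors are 3 counts and cover counting error only. The test was checked on simulated data. Mouse positions (build mm10) came from GENCODE M21, and promoter windows from RefSeq (GRCm38.p6). Windows of 5 of the 8 members were used, as Ret and Gfra2 had none and Gfra3 was not searched. No rat annotation was used. LncRNAs were taken within 10 kb of a member. Partner genes were named by the rule given beside them, and 3 nearest genes were named per member. The members, lists and alternatives were chosen with earlier results of these data known. Alternatives were DESeq2 1.42.0, other size factors, other filters, models without sex, groups fitted alone, a block in rat and each library left out. The fit without BALB/c sham 50 and SNI 49 was chosen after seeing the data. The rat fit without sham library 4 and SNT library 1 rested on their injured neuron marker sums in these data.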

Additional observations from a re-analysis of the deposited data

Results flagged for a closer look

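One value among the 56 groups of 4 to 6 libraries examined stood apart from the rest of its group by Dixon's test at the 95% level, where chance alone flags about 1 group in 20. Gfra1 in B10.D2 SNI library 76 was at 177 CPM, below the 245 to 268 CPM of the other 4 libraries of that group, a gap of 0.743 of the range against a critical value of 0.71. The same library held 341 CPM of the summed injured neuron markers, against 570 to 671 CPM in the other 4, and 69.2 CPM of Gfra3, among the other SNI values (62.9 to 70.1 CPM).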

How the results depend on the processing

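Over all alternatives, 989 values of the 8 genes were recomputed, of which 981 kept their direction and side of the threshold where called, 3 lost a call, 5 gained one and 0 reversed. In addition, 62 values not called in any fit changed sign. The lost calls were those of Gfra4 in BALB/c given above. Of the members called, the number rose from 0 to 1 in rat without sham library 4 and SNT library 1 together (Ret), and from 3 to 5 between the strains after SNI when the SNI groups were fitted alone (Gfra3 and Ret added). With at least 10 counts required in every library, Gdnf, Nrtn and Artn had no value in mouse, nor had Gdnf in rat. Male against female had no fit without sex in the model. Ret in B10.D2 over BALB/c sham was called without BALB/c sham 57 (0.23), and Gfra3 without B10.D2 sham 58 (0.33). Of 421 values of the other named features, 32 lost a call, 1 of them of Gfral and the others of Dusp6, Lrig1 or Ncam1. Ret, Gfra1 and Gfra4 moved by more than their SD when the longest transcript set the length, with no change of order. In rat, titles of 1 sham and 1 SNT library share a number, which is not stated to mark a batch. Correlations of deviations within these pairs were 0.0499, -0.293, -0.114 and -0.0936. With the number as a replicate block, the log2 fold change of Ret was -0.47 (edgeR adjusted p = 0.179), of the members 0 were called, and LncRNA3127 was called (edgeR adjusted p = 0.0483). Depth limits Gdnf, Artn and Nrtn, at 0 to 89 counts a library.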
